A study of Saccharomyces cerevisiae with 6 samples.

Results

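HXT1, HXT4 and HXT5 are 3 hexose transporter genes that lie next to each other on chromosome 8 of Saccharomyces cerevisiae. A 14 kb stretch around them (285001 to 299000 in file coordinates) was read in 6 transposon calling cards libraries. It was cut into 140 steps of 100 bp, and the region upstream of each gene was taken as 288701 to 290000 for HXT4, 292601 to 294500 for HXT1 and 296401 to 298000 for HXT5. The stretch held 5844 of the 203761 insertions of the series, of which 5165 were in the Rgt1 library and 571 in the Eds1 library. These positions are those of the files, whose genome build no source read here names, and the regions were not checked against an annotation of that build. In the RefSeq gene order of assembly R64 the genes run MSR1, HXT4, AHT1, HXT1, HXT5 and PAL2, and the locus tags put all of these but AHT1 on the Crick strand, so that upstream of each transporter gene is toward higher positions.

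Hexose transporters of the HXT family carry glucose and other hexoses into yeast by facilitated diffusion, and their genes are switched on at different glucose levels. HXT1 encodes a low-affinity carrier used when glucose is plentiful, HXT4 encodes a carrier of higher affinity used when glucose is scarce, and HXT5 encodes a carrier of moderate affinity made when growth is slow. Rgt1 is a zinc cluster protein that represses HXT genes when glucose is absent, and it leaves their promoters after the sensors Snf3 and Rgt2 signal that glucose is present. Eds1 is the paralog of Rgt1, also a zinc cluster protein, and much less is known about it.

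In transposon calling cards a TF is fused to Sir4, which draws the Ty5 retrotransposon to the DNA the TF occupies, and each new Ty5 copy marks a place where the TF has been. Every library came from BY4741 carrying the genotype sir4D, with a TF fused to Sir4 at its C-terminus on 1 plasmid and a barcoded Ty5 with HIS3 on another. Ty5 was driven by the GAL1/10 promoter, and a single clone was grown on galactose plates for 3 days, so transposition took place on galactose. The 6 TFs were Rgt1, Eds1, Leu3 (branched-chain amino acid synthesis), Sfp1 (ribosome biogenesis), Ino4 (phospholipid synthesis) and Zap1 (zinc uptake). There was 1 library per TF and none without a TF among these files, so every test and interval here compares libraries and covers counting error only. Each deposited line was counted as 1 insertion whatever its reads, and insertions were treated as independent. PCR reads without molecular identifiers are not independent molecules, so values from reads are given without intervals. The Rgt1 library held 29776 insertions and the Eds1 library 30707, while the others ranged from 15951 to 75550. The Rgt1 insertions lay on 19524 distinct positions and the Eds1 insertions on 30024. In the cluster these positions numbered 1976 and 471. The lines of the Rgt1 file run through the chromosomes 4 times and those of the Eds1 file 2 times. No source read here says what the passes are, so none was taken as a replicate. Repeats of a position may be the same insertion, and if so the intervals and p-values here are too narrow.

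The HXT cluster was one of the main destinations of Ty5 in the Rgt1 library. It held 17.3% of that library's insertions (95% Clopper-Pearson interval 16.9 to 17.8) and 49.5% of its reads. In the Eds1 library it held 1.86% of insertions (1.71 to 2.02) and 6.63% of reads. In the libraries of Leu3, Sfp1, Ino4 and Zap1 it held 39, 40, 16 and 13 insertions, together 108 of 143278 or 0.0754% (0.0618 to 0.0910). The order Rgt1, Eds1 and then the other TFs is set apart by intervals that do not overlap, and among the others the interval of Leu3, at 0.0516% (0.0367 to 0.0706), lies below that of Sfp1, at 0.112% (0.0799 to 0.152). The intervals of Ino4 (0.0573% to 0.163%) and Zap1 (0.0432% to 0.139%) overlap both.

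Nearly all insertions of Rgt1 and Eds1 in the cluster lay in the regions taken as upstream of the transporter genes. These regions were chosen with earlier results of these data known. AHT1, which lies between HXT4 and HXT1 in the gene order, was not placed within them. The 3 upstream regions make up 34.3% of the length of the cluster and held 95.1% of its Rgt1 insertions and 96.5% of its Eds1 insertions. The corresponding share was 66.7% for Leu3, 55.0% for Sfp1, 56.3% for Ino4 and 38.5% for Zap1, from few insertions each. Of the 140 steps, 85 held an Rgt1 insertion and 48 an Eds1 insertion, and 43 held none from any of the 6 libraries.

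**Figure D1:**
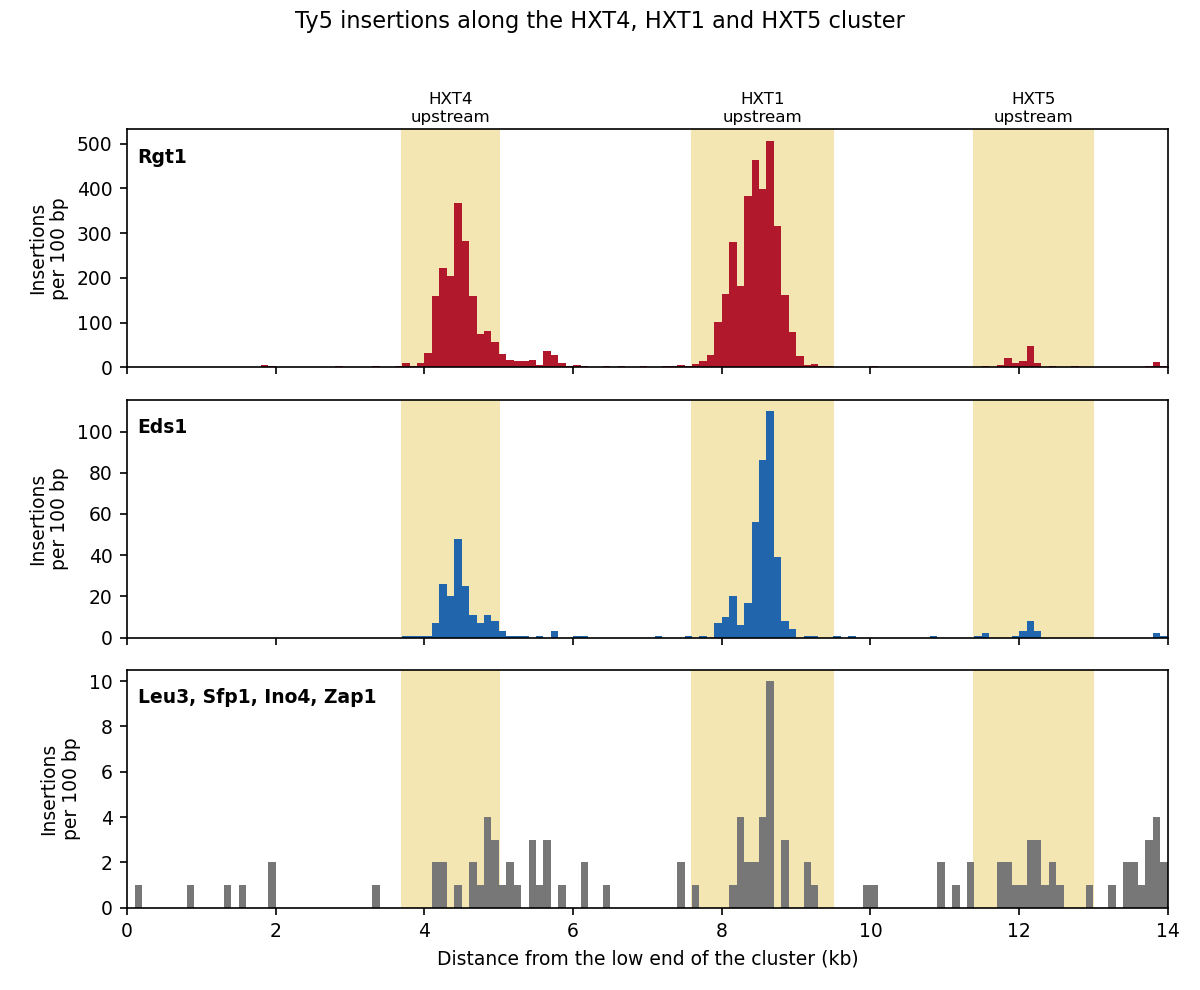
Insertions per 100-bp step (vertical axis, a different scale in each panel) against the distance in kb from the low end of the 14 kb cluster, for the Rgt1 library, the Eds1 library and the sum of the Leu3, Sfp1, Ino4 and Zap1 libraries. Shading marks the upstream regions of HXT4, HXT1 and HXT5; with all passes added up Rgt1 and Eds1 peak in the same step of each region, with up to 507 and 110 insertions, while no step of the 4 other libraries together exceeds 10.

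Upstream of HXT1, the low-affinity transporter gene, the Rgt1 library held 3129 insertions and the Eds1 library 366. Leu3 held 11, Sfp1 14, Ino4 2 and Zap1 3 insertions there. Rgt1 and Eds1 were thus high and the other 4 libraries low. Per 10000 insertions of the library these are 1051 for Rgt1 (1016 to 1086) and 119 for Eds1 (107 to 132), against 2.09 in the 4 other libraries pooled. The Rgt1 share was 502 times that of the 4 other libraries (exact conditional 95% interval 351 to 745) and the Eds1 share 56.9 times (39.2 to 85.6). These ratios depend on how insertions are counted. With each position counted once the Rgt1 ratio was 208, with insertions within 5 bp merged it was 16.7, and with totals taken from windows called in no library it was 1224. The Eds1 ratio was 6.50 with insertions merged, and 31.0 and 143 in the first and second pass of its file alone. Set against the mean of its own genome-wide density, the Rgt1 library was 665 times denser upstream of HXT1 and the Eds1 library 75.5 times. Sfp1 was 2.48 times denser there than its genome mean (1.36 to 4.16), and the intervals of Leu3, Ino4 and Zap1 include 1.

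HXT4 came next. Rgt1 held 1664 insertions upstream of it and Eds1 167, while Leu3 held 9, Sfp1 4, Ino4 2 and Zap1 0. The 0 of Zap1 allows a share of up to 1.87 per 10000, above the 1.19 per 10000 measured for Leu3, so a difference among the other 4 libraries was not detectable at this depth. The share was 559 per 10000 for Rgt1 (533 to 586) and 54.4 for Eds1 (46.5 to 63.3). These shares were 534 times (323 to 956) and 51.9 times (30.6 to 94.9) that of the 4 other libraries.

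HXT5, the gene used in slow growth, was the weakest of the 3 in both libraries. Its upstream region held 119 Rgt1 insertions and 18 Eds1 insertions, against 6 in Leu3, 4 in Sfp1, 5 in Ino4 and 2 in Zap1. Rgt1 stood above the rest by share, at 40.0 per 10000 (33.1 to 47.8), and Eds1 followed at 5.86 (3.47 to 9.26). The Eds1 interval overlaps those of Ino4, at 3.13 per 10000 (1.02 to 7.31), and Zap1, at 1.25 (0.151 to 4.51). Against the 4 other libraries pooled the Rgt1 share was 33.7 times higher (20.2 to 59.7) and the Eds1 share 4.94 times (2.40 to 10.2).

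**Figure D2:**
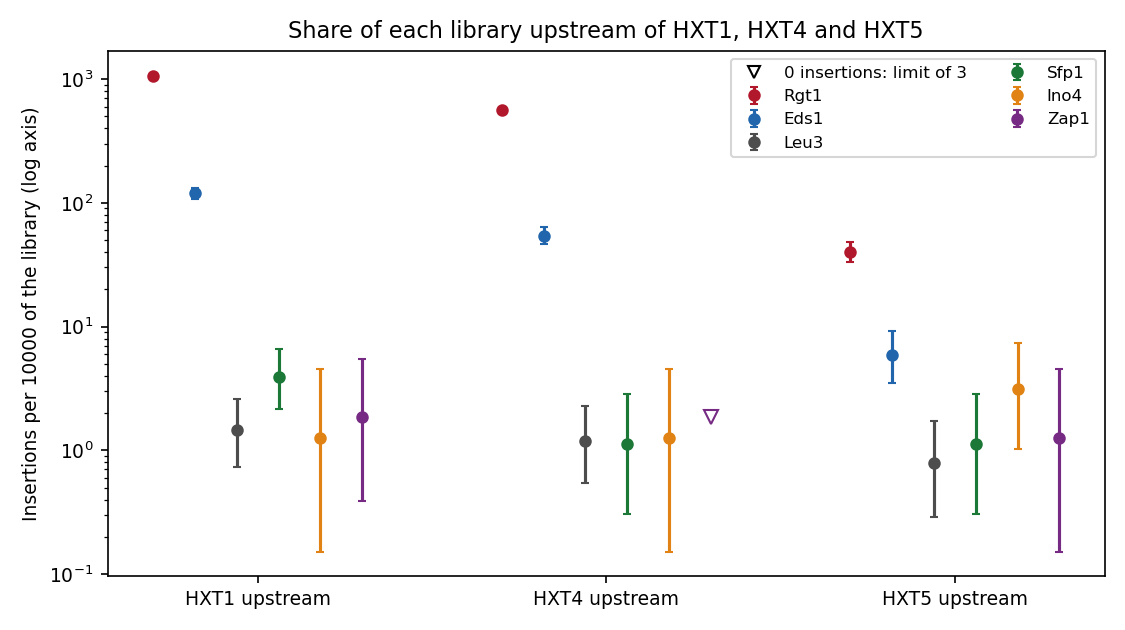
Insertions per 10000 of each library (vertical log axis) in the regions upstream of HXT1, HXT4 and HXT5, with 1 point per library and exact 95% binomial intervals as bars; the open triangle is the limit that 0 Zap1 insertions allow. Rgt1 is highest and Eds1 second in each region. At HXT5 the interval of Eds1 (3.47 to 9.26) overlaps those of Ino4 (1.02 to 7.31) and Zap1 (0.151 to 4.51).

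In the Rgt1 and Eds1 libraries, the upstream regions were ordered HXT1, HXT4, HXT5 by insertions per kb. The densities were 1647, 1280 and 74.4 per kb in the Rgt1 library. HXT1 exceeded HXT4 by 1.29 times (1.21 to 1.37) and HXT4 exceeded HXT5 by 17.2 times (14.3 to 20.9). The Eds1 densities were 193, 128 and 11.3 per kb, with HXT1 1.50 times HXT4 (1.25 to 1.81) and HXT4 11.4 times HXT5 (7.01 to 19.7). The order of HXT1 and HXT4 in Rgt1 depends on counting repeats of a position. With each position counted once, Rgt1 had hit 51.1% of the bases at HXT1, 52.8% at HXT4 and 5.94% at HXT5. Eds1 had hit 15.0%, 11.5% and 1.06%. The Rgt1 share was 8.82 times the Eds1 share at HXT1 (7.91 to 9.85), 10.3 times at HXT4 (8.76 to 12.1) and 6.82 times at HXT5 (4.13 to 11.9). As a ratio of odds, the HXT1 to HXT4 balance in Eds1 was 1.17 times that in Rgt1 (0.958 to 1.42), HXT1 to HXT5 was 0.773 times (0.462 to 1.37) and HXT4 to HXT5 was 0.663 times (0.390 to 1.19). All of these intervals include 1, and their width at HXT5 rests on the 18 Eds1 insertions there. The distinct positions at HXT1 and HXT4 numbered 285 and 149 in Eds1, and 971 and 686 in Rgt1. Whether the balance of HXT1 to HXT4 differs with each position counted once was not tested.

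The stretches between the upstream regions were uneven. Between HXT4 and HXT1, the 2600 bp below the HXT1 region held 211 Rgt1 insertions, 32.8 times the genome mean of that library (28.5 to 37.5), and 14 Eds1 insertions, 2.11 times its mean (1.15 to 3.54). This stretch held 4 insertions in Leu3, 6 in Sfp1, 4 in Ino4 and 3 in Zap1. The Rgt1 insertions thinned out from the HXT4 peak and rose again to 37 in the step from 290601 to 290700 before falling to 3 in the step from 290901. Between the HXT1 and HXT5 regions Rgt1 held 8 insertions in 1900 bp and Eds1 3, and the intervals of both densities over their genome means include 1. The lowest 3700 bp of the cluster held 18 insertions in Rgt1 and 0 in Eds1. The 0 allows an Eds1 share of up to 0.977 per 10000, against 6.05 measured for Rgt1 (3.58 to 9.55). In the last 1000 bp, beyond the HXT5 region, Rgt1 held 16 insertions, 6.46 times its mean (3.69 to 10.5).

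Rgt1 windows were called across the cluster in a genome-wide test. Windows of 1 kb with at least 10 insertions were compared with the other 5 libraries by a one-sided Fisher's exact test with Benjamini-Hochberg adjustment over all windows tested. A window was called at an adjusted p below 0.05. Of 4385 windows, 2.01% were called for Rgt1, and of the 14 windows of the cluster 11 reached 10 insertions and were called. Of these 11, 7 reach the minimum without the Rgt1 library, and the others passed it only through the Rgt1 insertions themselves. With a minimum of 1 insertion, 11 of the 14 windows were called. Their shares were 5.19 to 76.0 times those of the other 5 libraries, and the weakest, 298001 to 299000, had an adjusted p of 4.28e-04 by Fisher's exact test. Ranked by insertions among 11107 windows of the genome, the window at 293001 to 294000 upstream of HXT1 was first in the Rgt1 library with 2933 insertions and second in the Eds1 library with 356. The window at 289001 to 290000 upstream of HXT4 had rank 3 in Rgt1 with 1642 and rank 7 in Eds1 with 164.

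Eds1 calls in the cluster depended on whether Rgt1 was in the comparison. Against the other 5 libraries 0.935% of windows were called for Eds1 by Fisher's exact test and 0 of the 11 in the cluster, where 0 had an unadjusted p below 0.05. The background then held the Rgt1 insertions. With the Rgt1 library left out, 4184 windows were tested and 1.58% called, and 4 of the 7 cluster windows tested were called. With a minimum of 1 insertion it was 4 of 13. These were 289001 to 290000 with 164 Eds1 insertions against 15 in the 4 other libraries (adjusted p = 1.77e-101), 293001 to 294000 with 356 against 26 (5.05e-228), 292001 to 293000 with 10 against 3 (6.49e-04), which reached the minimum only through its Eds1 insertions, and 297001 to 298000 with 14 against 12 (0.00335), all by Fisher's exact test. The last of them lies in the HXT5 region. With Leu3, the largest library, also left out of the background, 2 of the 6 cluster windows tested were called. When all positions also hit in the Rgt1 library were left out of every library, an alternative chosen after seeing the data, 8 of the 366 Eds1 insertions were left at HXT1, 11 of 167 at HXT4 and 11 of 18 at HXT5. The Eds1 share was then 10.1 times that of the 4 other libraries at HXT1 (2.71 to 45.9), 55.6 times at HXT4 (8.08 to 2394) and 3.71 times at HXT5 (1.54 to 8.64), and 0 of the 4 cluster windows still at 10 insertions were called. The Rgt1 library had hit most bases of the HXT1 and HXT4 peaks, so that this setting removes nearly all insertions there whatever their origin. The other TFs had no call in the cluster against their 5 other libraries by Fisher's exact test, with 0 of 11 windows at an unadjusted p below 0.05 for each. Over all windows 4.13% were called for Leu3, 3.88% for Sfp1, 0.730% for Ino4 and 0.821% for Zap1. Their background held the Rgt1 insertions too, so this test could not find a raised share near the peaks. With the Rgt1 library left out, 0 of 7 cluster windows tested were called for each of these TFs. The Eds1 insertions were still in that background.

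With all passes added up, Rgt1 and Eds1 peaked in the same 100-bp step upstream of each gene. The exception among single passes was pass 4 of Rgt1, whose fullest step at HXT1 and at HXT4 was that from 801 to 900 bp, with 93 and 77 insertions. By distinct positions the fullest Rgt1 steps were 293401 to 293500, with 100 against 98 in the peak step, and 289501 to 289600, with 95 against 93. Upstream of HXT1 the peak step with all passes added up was 293601 to 293700, which begins 1001 bp from the end of the region next to the gene. It held 507 Rgt1 insertions on 98 positions, 16.2% of those in the region, and 110 Eds1 insertions, 30.1%. Leu3 held 4 insertions in this step, Sfp1 4, Ino4 0 and Zap1 2, which makes it the fullest step of the cluster for the sum of these 4 libraries as well. Upstream of HXT4 the peak step was 289401 to 289500, with 368 Rgt1 insertions (22.1% of the region) and 48 Eds1 insertions (28.7%). Upstream of HXT5 it was 297101 to 297200, with 47 Rgt1 insertions (39.5%) and 8 Eds1 insertions (44.4%). The HXT4 and HXT5 peak steps both begin 701 bp from the gene-side end of their regions.

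The Eds1 insertions upstream of HXT1 were the more tightly placed. Their median lay 984 bp from the gene-side end, with quartiles at 867.5 and 1044 bp, while the Rgt1 median lay at 889 bp, with quartiles at 704 and 1056 bp. The interquartile range was 176.5 bp for Eds1 and 352 bp for Rgt1. It ranged from 309.5 to 450.0 bp over the 4 Rgt1 passes and from 164 to 185 bp over the 2 Eds1 passes. The passes are parts of 1 library each, so these ranges do not measure spread between libraries. The 450.0 bp were those of Rgt1 pass 4, with 7111 insertions on 7111 distinct positions, while pass 2 had 13088 on 11683. Between 801 and 1100 bp from the gene-side end lay 68.9% of the Eds1 insertions and 43.8% of the Rgt1 insertions of the region. These are the 3 fullest Eds1 steps, chosen after their values were seen. With each position counted once, the interquartile range was 208 bp for Eds1 and 524 bp for Rgt1. The files hold at most 2 lines per position within a pass of these libraries, and in the 5 steps from 293301 to 293800 the Rgt1 library occupied 89 to 100 of the 100 bases. The part of this filling in the difference was not tested. Weighted by reads, the medians moved to 1007 bp for Rgt1 and 1019 bp for Eds1, with interquartile ranges of 185 and 45 bp.

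Upstream of HXT4 the medians lay close together. The Rgt1 median lay 754 bp from the gene-side end and the Eds1 median at 759 bp, and the interquartile ranges of 292 and 253.5 bp overlapped between passes. At HXT5 the medians were 714 bp for Rgt1 and 743.5 bp for the 18 insertions of Eds1.

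**Figure D3:**
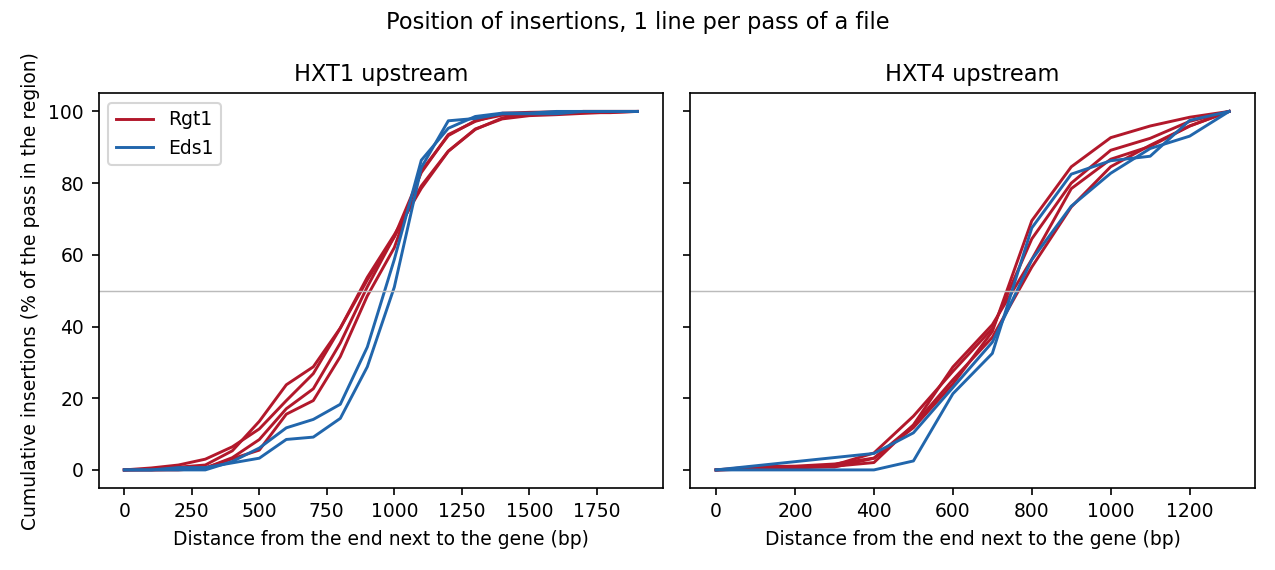
Cumulative share of the insertions of a region (vertical axis, percent) against the distance in bp from the end next to the gene, with 1 line per pass of the Rgt1 file (4 lines) and of the Eds1 file (2 lines). Upstream of HXT1 the Eds1 lines rise later and more steeply, around a median of 984 bp against 889 bp for Rgt1, and upstream of HXT4 the lines of both TFs run together.

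Reads were concentrated upstream of HXT1. An Rgt1 insertion there had a median of 17 reads, against 5 upstream of HXT4, 3 upstream of HXT5 and 4 over the whole library. The HXT1 region took 42.8% of all Rgt1 reads from 10.5% of its insertions, and the single peak step took 20.7% of the reads of the library from 1.70% of its insertions. The Eds1 library was also highest at HXT1, with a median of 12 reads and 5.75% of its reads there. Its medians were 3 each at HXT4 and HXT5, equal to the median of 3 over the whole library. In the peak step the median was 47 reads in Rgt1 and 23 in Eds1. Toward the ends of the region the Rgt1 median per step was lower, at 1 read in the step from 292701 and 1.5 in that from 294401. HXT4 took 6.48% of the Rgt1 reads and HXT5 0.135%.

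The passes of the files did not hold the cluster in equal shares. For Rgt1 the HXT1 region made up 13.4%, 8.42%, 15.7% and 9.24% of the 4 passes, and HXT4 6.11%, 5.10%, 6.67% and 5.48%. The highest pass exceeded the lowest by 1.86 times at HXT1 (1.68 to 2.06) and by 1.31 times at HXT4 (1.12 to 1.51). For Eds1 the HXT1 region made up 0.649% of the first pass, 153 of 23581 insertions, and 2.99% of the second, 213 of 7126. The second Eds1 pass was thus higher by 4.61 times at HXT1 (3.73 to 5.71), 3.04 times at HXT4 (2.22 to 4.17) and 3.31 times at HXT5 (1.16 to 9.41). Even so, the lowest Rgt1 pass exceeded the second Eds1 pass by 2.82 times at HXT1 (2.43 to 3.28), 4.55 times at HXT4 (3.60 to 5.81) and 2.66 times at HXT5 (1.28 to 6.20).

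**Figure D4:**
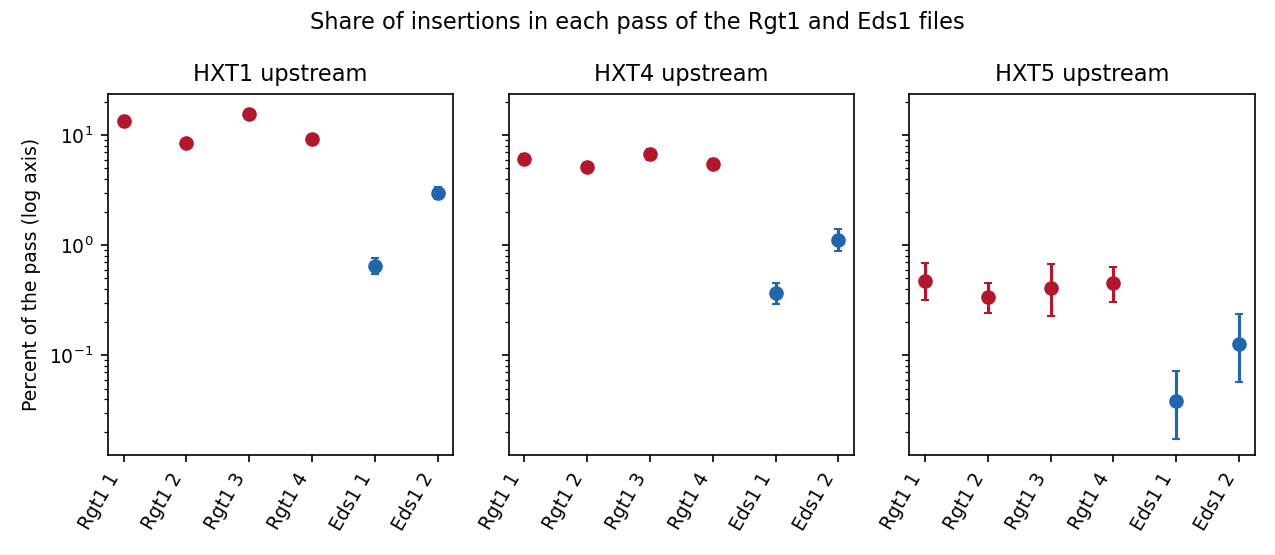
Percent of the insertions of each pass (vertical log axis) that lay upstream of HXT1, HXT4 and HXT5, for the 4 passes of the Rgt1 file and the 2 passes of the Eds1 file, with exact 95% binomial intervals as bars. Every Rgt1 pass lies above both Eds1 passes in each region, and the second Eds1 pass lies above the first, 2.99% against 0.649% at HXT1.

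Positions of Eds1 insertions were compared with those of Rgt1. Upstream of HXT1, 358 of the 366 Eds1 insertions lay on a base also hit in the Rgt1 library, where Rgt1 had hit on average 91.9% of the bases of the same steps. Upstream of HXT4 it was 156 of 167, or 93.4%, against 79.2% of bases hit, and upstream of HXT5 7 of 18, or 38.9%, against 19.3%. Insertions of single Rgt1 passes lay on bases hit in other Rgt1 passes in 84.5% to 97.0% of cases at HXT1, 76.9% to 92.7% at HXT4 and 27.3% to 46.7% at HXT5. Outside the cluster, 8.51% of Eds1 insertions shared a base with Rgt1 (7.04% in the first pass and 13.5% in the second), against 2.35% to 2.63% in Leu3, Sfp1, Ino4 and Zap1. The second Eds1 pass shared 7.37%, 9.35%, 4.99% and 10.8% with Rgt1 passes 1 to 4 in turn. The first shared 3.55%, 5.40%, 2.45% and 3.25%. Rgt1 pass 4 held 7111 distinct positions and pass 2 held 11683. Only Rgt1 pass 4 and Eds1 pass 2 had positions out of order within a chromosome. The part of such shared positions in the Eds1 signal at the cluster was not tested.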

How the data were processed

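Insertions of 6 libraries were analysed. The authors recovered DNA next to Ty5 by 3 restriction digests, self-ligation and inverse PCR. Reads were aligned with Novoalign according to the submitters' processing notes, and neither its version nor the genome build was given in the sources used here. Each deposited line gives the chromosome and position of 1 insertion and its read count, which was not normalized. Each line was counted as 1 insertion whatever its reads, and shares were taken over all insertions of a library. Windows of 1 kb with at least 10 insertions were tested by one-sided Fisher's exact tests (Benjamini-Hochberg, adjusted p below 0.05). Region shares were compared as ratios with exact conditional 95% intervals and no p-value. Python 3.11.15, pandas 2.3.3, NumPy 2.4.6, SciPy 1.17.1 and matplotlib 3.10.9 were used, and the window test was tested on simulated data.

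The genes named are HXT1, HXT4 and HXT5, their neighbours in the RefSeq order, and regulators as background only. These members, regions and lists were chosen with earlier results of these data known. Alternatives were each position counted once, insertions within 5 bp merged, 2 or more reads, other windows and filters, regions changed by 200 bp, totals from windows called in no library, and each background library left out. Single passes, and positions not shared with Rgt1, were added after seeing the data. A planned search for the Rgt1 motif in promoter sequences was not run, and other hexose transport genes were not placed, since no sequence or annotation of the files' build was used here. The authors' scores per gene were not used.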

Additional observations from a re-analysis of the deposited data

How the results depend on the processing

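Of 197 values under other settings, 161 lay within the 95% interval of the ratio reported or within 1.5 times the count reported, 36 lay outside and 0 reversed direction. The 197 do not include the comparisons of regions within a library. The 161 include window counts of 0 for Leu3, Sfp1, Ino4 and Zap1, most with the Rgt1 insertions in the background, so the tally does not measure robustness. Of the Eds1 to Rgt1 ratios, 5 of 8 lay outside at HXT1, 5 of 8 at HXT4 and 2 of 8 at HXT5. Some inside the interval still differed by over 1.5 times: with regions narrowed by 200 bp the HXT4 ratio was 910 for Rgt1 and 85.2 for Eds1, with insertions merged the HXT5 ratio was 20.6 and 3.16, and with pass 1 of Eds1 alone the HXT5 ratio was 3.22 and 0.0955 of Rgt1. With each position counted once the Rgt1 to 4-library ratio was 208 at HXT1 and 294 at HXT4, Eds1 to Rgt1 was 0.191 and 0.141, and 1 Eds1 window was called against 5 libraries. With insertions within 5 bp merged the Rgt1 ratio was 16.7 at HXT1 and 18.4 at HXT4, the Eds1 ratio 6.50 and 14.2, and Eds1 to Rgt1 0.390 and 0.768, the last with an interval of 0.467 to 1.29 that includes 1. This setting left 47 Rgt1 clusters upstream of HXT1, so it removes counts where insertions are dense. It gave 2 Eds1 windows of 11 tested against 5 libraries and 2 of 6 against 4. With totals from windows called in no library, which hold 27.0% of the Rgt1 library, the Rgt1 ratio was 1224 at HXT1, 1302 at HXT4 and 82.1 at HXT5, and Eds1 to Rgt1 was 0.0413, 0.0355 and 0.0535. Leaving the Rgt1 library out gave 4 Eds1 windows of 7 tested in place of 0 of 11. Leaving Leu3 out of the 4-library background gave 2 of 6 in place of 4 of 7. Single passes were chosen after seeing the data. Pass 3 of Rgt1 alone gave 7 called windows of 8 tested, in place of 11 of 11, and a ratio of 750 at HXT1. Pass 1 of Eds1 gave 2 windows of 6 tested against 4 libraries, a ratio of 31.0 at HXT1, and 0.0617 of Rgt1 at HXT1 and 0.0660 at HXT4. Pass 2 gave 1 window against 5 libraries, ratios of 143, 107 and 10.6 at HXT1, HXT4 and HXT5, and 0.284, 0.201 and 0.316 of Rgt1. Without positions shared with Rgt1, 0 Eds1 windows were called and the Eds1 ratio was 10.1 at HXT1, 55.6 at HXT4 and 3.71 at HXT5; few insertions are left there by construction. Apart from what the settings remove by construction, the cause was not tested. Depth limits the 4 other libraries, with 0 to 14 insertions per region, and HXT5 in Eds1. No paired analysis was possible because there is 1 library per TF.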
